A study of Mus musculus with 6 samples.

Results

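Target genes of hypoxia-inducible factor (HIF) that act outside glycolysis were examined in hippocampal neurospheres, which are floating spheres of dividing neural progenitor cells. The set holds 34 genes of the 54532 gene rows in the deposited table, and each gene has 1 row. They were chosen by name as known HIF targets and selected with the genotype results of these same 6 libraries in view. The differences between genotypes are therefore given as a description of these genes and are no independent evidence of a direction.

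HIF is a transcription factor made of an oxygen-regulated alpha subunit and the constant partner ARNT. When oxygen is present, prolyl hydroxylases mark the alpha subunit, the VHL protein binds it and it is destroyed. When oxygen is low, the alpha subunit persists, pairs with ARNT and binds a short DNA core called the hypoxia response element. Beside the glycolytic enzymes, its known targets serve mitochondrial turnover, pH control, collagen modification, glycogen and lipid storage, and feedback on growth. In neural progenitors, HIF activity is known to influence proliferation and survival.

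The FGF13cko group has the genotype hGFAPCre+, Fgf13 flox/y, and the CTRL group has hGFAPCre+, Fgf13+/y, with 3 libraries in each. Both groups carry hGFAPCre, a Cre recombinase under the human GFAP promoter, which acts in neural precursors and astrocytes and not in every cell type of a culture. All spheres came from the hippocampus of C57BL/6 mice at postnatal day 0, with control mice from the same litters, and were grown in B27 medium with 20 ng/ml FGF-2 and 20 ng/ml EGF until harvest on day 7. The cells of 1 mouse filled 2 wells, but whether the libraries of a group stem from different mice or cultures is not labelled, and the p-values then measure the spread between these libraries alone. These are bulk libraries, in which fewer cells of a type and less RNA per cell cannot be told apart.

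Reads assigned to genes numbered 24015697 to 24531400 in the FGF13cko libraries and 22191718 to 24261454 in the CTRL libraries. Mitochondrially encoded genes held 2.28%, 2.36% and 4.05% of reads in FGF13cko 1, 2 and 3, against 1.48%, 1.46% and 4.14% in CTRL 1, 2 and 3, so both replicate 3 libraries stood apart from the others. Fgf13 itself had 201, 239 and 332 normalized counts in FGF13cko 1, 2 and 3, against 480.1, 651 and 276 in CTRL 1, 2 and 3. CTRL 3 lay inside the FGF13cko range and below FGF13cko 3, so Fgf13 was not lower in FGF13cko within replicate 3. The log2 change of -0.81 (SE 0.33) over all libraries missed the threshold (limma adjusted p = 0.134, exact permutation p = 0.2, 2-sided, where 0.1 is the smallest possible). Without CTRL 3 it was -1.15 (limma adjusted p = 0.0108), and a whole-gene count cannot reveal a lost exon. Progenitor markers had a summed level of 186741 to 197076 normalized counts in FGF13cko and 133878 to 147546 in CTRL. Vim, Fabp7 and Slc1a3, which did not pass the all-gene test, carried most of this sum in every library. Not all markers were abundant, with Hes5 at 50.2 to 66.6 in FGF13cko and 189 to 586 in CTRL. By the all-gene test 4 of the 8 (Sox2, Pax6, Hes5 and Prom1) were lower in FGF13cko and 0 were higher. Of all genes tested 7.08% were lower and 7.55% higher, which stands beside each marker count here. With the replicate number as a block, 13.9% of all genes were lower, which stands beside the block counts. Markers of young neurons were higher for 3 of 4 genes (8360.4 to 18798 in FGF13cko and 5031 to 6246 in CTRL, summed). Astrocyte markers were higher for 1 of 4 (16108 to 40644 and 9765 to 37537), and oligodendrocyte markers lower for 1 of 4, or 2 with the replicate block (20182 to 27606 and 19266 to 28324). Endothelial markers were higher for 2 of 5 tested (182 to 306 in FGF13cko and 47.5 to 93.6 in CTRL). Mural and fibroblast markers were higher for 1 of 4 (808 to 2428 and 262 to 392), and 1 was lower with the replicate block. Microglia and macrophage markers were higher for 1 of 3 (88.9 to 104 and 19.1 to 53.6), and erythroid markers for 0 of 1 (19.3 to 41.6 and 11.1 to 46.5). These sums hold all genes listed (6, 6, 6 and 4 in that order), also those too low to be tested. Lum, Hbb-bs and Hba-a1 were at 0 in all 3 CTRL libraries. Rgs5, a pericyte gene, made up most of the mural and fibroblast sum in the FGF13cko libraries, with 659, 798 and 2267 in FGF13cko 1, 2 and 3, against 109, 142 and 310.5 in CTRL 1, 2 and 3. The part of these markers in the differences below was not tested.

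The core of the hypoxia response element was searched first, a sequence feature that the expression values do not contain. The genes were named as known HIF targets, however, a status that can itself rest on such cores. The shares below are therefore a description and no independent evidence. Promoter windows of 300 bases, 250 before and 50 after the gene start, were found for 28 of the 34 genes in RefSeq sequences of GRCm38.p6. The letters ACGTG or GCGTG stood on either strand in 24 of these 28 genes (85.7%), against 46.7% of 27025 genes with a window and 66.0% of the 11693 genes that were also tested for expression. A gene with several windows was counted if any of them held the letters. ACGTG alone was in 18 of 28 (64.3%), against 21.8% of all genes with a window and 28.4% of those tested. The palindrome CACGTG, which holds the core on both strands and is also an E-box, was in 5 of 28 (17.9%), against 8.09% and 11.2%. The windows of the HIF targets had a median of 63.2% G and C, against 52.8% and 60.7%, and base composition alone changes how often such letters occur. The windows of Car12, Vldlr, Gys1 and Gbe1 held no core, which says only that these letters are not in those bases. A match describes the sequence and does not show binding.

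A few windows are shown in part because their genes span the range of the results, with genes that were lower in FGF13cko followed by Cited2 and Wsb1, which did not pass the test. Each is written 5′ to 3′ on the strand of the gene, with every core match on either strand in capitals. A core on the gene's own strand reads ACGTG or GCGTG there, and one on the opposite strand appears as the reverse complement, CACGT or CACGC. The stretches are Bnip3 at chr7:138909562-138909661 (minus strand), Fam162a at chr16:36071595-36071684 (minus), Car9 at chr4:43506996-43507025 (plus), P4ha1 at chr10:59323196-59323295 (plus), P4ha2 at chr11:54100798-54100897 (plus), Hilpda at chr6:29272571-29272600 (plus), Bhlhe41 at chr6:145865559-145865658 (minus), Ankrd37 at chr8:45999851-45999880 (minus), Cited2 at chr10:17723028-17723127 (plus) and Wsb1 at chr11:79254718-79254817 (minus).
Bnip3: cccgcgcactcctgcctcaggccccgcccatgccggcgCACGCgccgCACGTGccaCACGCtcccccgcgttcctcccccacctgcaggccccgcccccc
Fam162a: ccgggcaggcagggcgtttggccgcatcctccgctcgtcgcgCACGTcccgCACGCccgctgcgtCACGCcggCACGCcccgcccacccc
Car9: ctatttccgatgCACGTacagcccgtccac
P4ha1: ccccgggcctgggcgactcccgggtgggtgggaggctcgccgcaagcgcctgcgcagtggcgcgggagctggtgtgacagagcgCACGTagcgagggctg
P4ha2: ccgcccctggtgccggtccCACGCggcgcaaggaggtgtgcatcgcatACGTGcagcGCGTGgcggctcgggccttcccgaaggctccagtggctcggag
Hilpda: gatggccagcggACGTGccccagggcgagc
Bhlhe41: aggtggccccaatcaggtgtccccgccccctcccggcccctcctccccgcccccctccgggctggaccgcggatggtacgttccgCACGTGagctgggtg
Ankrd37: ggctgcacatgtcagtgtttgggtACGTGa
Cited2: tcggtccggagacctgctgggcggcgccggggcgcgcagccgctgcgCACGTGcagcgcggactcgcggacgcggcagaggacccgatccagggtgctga
Wsb1: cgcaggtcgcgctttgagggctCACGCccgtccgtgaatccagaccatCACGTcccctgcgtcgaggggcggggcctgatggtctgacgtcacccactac
Bnip3 and Fam162a each carry clustered cores, the whole windows of P4ha1 and P4ha2 hold 3 and 4 cores, not all of them in the stretches shown, and Cited2 and Wsb1 carry the core as well although their expression did not pass the test. The starts used for the windows can differ from the GENCODE gene coordinates. By those coordinates, the stretches of Car9, P4ha2, Hilpda and Ankrd37 lie inside the gene and not before its start.

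In expression, most of the 34 genes were lower in FGF13cko and none was called higher. By limma, on log2(normalized count + 1) with p-values adjusted over all 16852 genes tested and a threshold of 0.05, 26 of 34 were lower, beside 7.08% of all tested genes. None of the 34 was higher, beside 7.55% of all genes, and 8 did not pass. The adjusted p of the 26 ranged from 0.00115 to 0.0444. A log2 change of -1 or below was found in 25 of the 26, beside 3.91% of all genes, and 33 of 34 changes were negative. The median log2 change was -1.29 over the 34 genes and 0.02 over all genes tested. In 29 of 34 genes every FGF13cko library lay below every CTRL library, beside 18.7% of all genes. Leaving out 1 library at a time gave 23, 20 and 21 lower genes without FGF13cko 1, 2 and 3, beside 3.74%, 1.64% and 2.93% of all genes. Without CTRL 1, 2 and 3 it gave 21, 23 and 31, beside 2.02%, 4.33% and 12.9% of all genes. The genes that lost the call in at least 1 of these fits were Ak4, Bhlhe40, Car12, Jmjd6, Stc2 and Vldlr, whose highest limma adjusted p was 0.0779, 0.14, 0.115, 0.0543, 0.0658 and 0.0761 in that order. With the replicate number as a block, 31 of 34 were lower, beside 13.9% of all genes. The authors' deposited table lists 29 of 34 as lower and 0 as higher under the same threshold, beside 7.91% of its genes with an adjusted p. Because the genes were selected with this contrast in view, these shares are printed side by side and nothing is read from their difference.

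**Figure D1:**
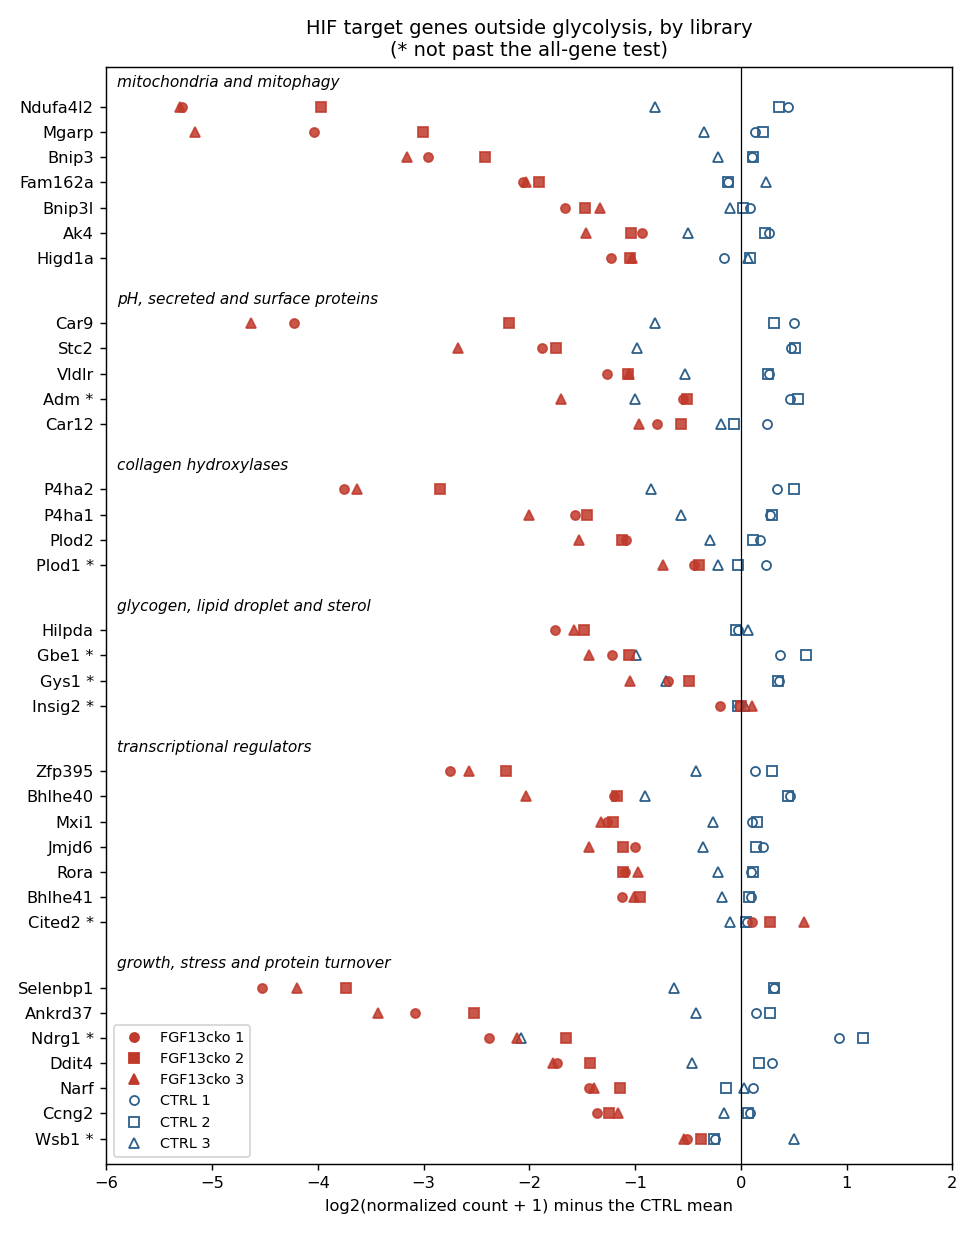
Each point is 1 library, placed on the horizontal axis by log2(normalized count + 1) minus the CTRL mean of that gene, with FGF13cko filled and CTRL open and genes in rows by role. The FGF13cko points lie left of the CTRL points in 29 of 34 rows, and an asterisk marks the 8 genes that did not pass the test.

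Summed over the 34 genes, the libraries held 42887, 48037 and 40244 normalized counts in FGF13cko 1, 2 and 3, against 125677, 123667 and 94228 in CTRL 1, 2 and 3. The sum is carried by its most abundant genes, and by role the median log2 change ran from -2.0 for 7 genes of mitochondria to -0.99 for 4 genes of glycogen, lipid and sterol storage. In the paragraphs that follow, values are normalized counts in the order of replicates 1, 2 and 3, and each change is the log2 difference of FGF13cko minus CTRL.

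Genes of mitochondria and mitophagy were lower in FGF13cko for all 7 of the 7 listed, with changes from -4.85 to -1.10. The largest change of the whole set was in Ndufa4l2, a paralog of a respiratory chain subunit that is known to restrain respiration under low oxygen. It had 13.8, 35.7 and 13.5 in FGF13cko and 783, 739.7 and 327 in CTRL, a change of -4.85 (SE 0.46). FGF13cko 2 was the highest of its group and CTRL 3 the lowest of its own, and the groups were far apart. Its exons share a short stretch with the abundant Shmt2 on the opposite strand, and without strand marks from the kit the reads of that stretch cannot be told apart. Mgarp, which is known to shape mitochondrial transport and cristae, had 39.3, 81.0 and 17.4 in FGF13cko and 725, 764 and 517 in CTRL. This was a change of -4.07 (SE 0.49), and the lowest and highest FGF13cko libraries differed several-fold while all stayed well below CTRL.

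Bnip3 and its relative Bnip3l encode outer-membrane receptors that draw mitochondria into mitophagy. Bnip3 (chr7:138890836-138909519, minus strand, GRCm38), whose window with clustered cores is printed above, had 329, 478 and 287 in FGF13cko and 2749, 2772 and 2201 in CTRL. Its mean in FGF13cko was 14.2% of that in CTRL, a change of -2.84 (SE 0.21). Bnip3l had 2071, 2371 and 2608 in FGF13cko and 6966, 6653 and 6141 in CTRL, a change of -1.49 (SE 0.15). The groups were far apart in both genes, and Bnip3 differed by more than Bnip3l. Fam162a, a mitochondrial protein tied to hypoxia-induced cell death, had 2564, 2857 and 2613 in FGF13cko and 9831, 9851 and 12641 in CTRL. Its change was -2.0 (SE 0.16), and here CTRL 3 was the highest library, not the lowest. Fam162a shares exonic bases with Wdr5b on the other strand. Higd1a, a factor that binds respiratory complexes, had 2067, 2334 and 2372 in FGF13cko and 4327, 5133 and 5083 in CTRL, a change of -1.10 (SE 0.14) with no overlap. Ak4, an adenylate kinase of the mitochondrial matrix, had 1657, 1549 and 1149 in FGF13cko and 3823, 3726 and 2249 in CTRL. The change was -1.15 (SE 0.24), and the replicate 3 library was the lowest in both groups.

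Among 5 genes of pH control and of secreted or surface proteins, 4 were lower and Adm did not pass. Car9 and Car12 encode carbonic anhydrases of the cell surface that turn carbon dioxide into bicarbonate and acid. Car9 (chr4:43506966-43513729, plus strand, GRCm38) had 117, 480.5 and 87.9 in FGF13cko and 3119, 2737 and 1255 in CTRL, a change of -3.68 (SE 0.62). Its libraries were uneven, with FGF13cko 2 at several times the level of FGF13cko 1 and 3, and CTRL 3 well below CTRL 1 and 2. The authors' deposited log2 fold change of Car9 was smaller in size, at -1.93 (SE 0.49), while DESeq2 on reads recovered from the deposited values gave -3.38. Car12 had 288, 339 and 256 in FGF13cko and 597, 481 and 439 in CTRL, a smaller change of -0.78 (SE 0.18) and the only call of the set short of -1. Stc2, a secreted glycoprotein that is also induced by amino acid and endoplasmic reticulum stress, had 663, 724 and 382 in FGF13cko and 3385, 3475 and 1234 in CTRL. Replicate 3 was low in both groups, and the change was -2.10 (SE 0.42). Vldlr, a receptor for lipoproteins and for reelin, had 2402, 2744 and 2765 in FGF13cko and 6919, 6886 and 4007 in CTRL, a change of -1.13 (SE 0.23) in which CTRL 3 lay nearest to FGF13cko. Adm encodes adrenomedullin, a secreted peptide that widens vessels, and had 872, 896 and 391 in FGF13cko and 1752, 1849 and 635 in CTRL. CTRL 3 lay below FGF13cko 1 and 2, so the groups overlapped. Within replicate 3 FGF13cko was lower than CTRL, and the change of -0.92 (SE 0.47) had a limma adjusted p of 0.216, against 0.00169 with the replicate block.

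The collagen hydroxylases modify newly made collagen chains in the endoplasmic reticulum, P4ha1 and P4ha2 as catalytic subunits of prolyl 4-hydroxylase and Plod1 and Plod2 as lysyl hydroxylases. Of these 4 genes 3 were lower. P4ha2 had 143, 268 and 156 in FGF13cko and 2464, 2740.3 and 1076 in CTRL, so its FGF13cko mean was 9.02% of that in CTRL and its change -3.41 (SE 0.38). P4ha1 had 2073, 2246 and 1538 in FGF13cko and 7454, 7527 and 4151 in CTRL, a change of -1.67 (SE 0.26). In both genes CTRL 3 was the lowest CTRL library and still above every FGF13cko library. Plod2 had 2648, 2571 and 1947 in FGF13cko and 6369.5, 6074 and 4583 in CTRL, a change of -1.25 (SE 0.19). Plod1 had 2436, 2506 and 1981 in FGF13cko and 3901, 3244 and 2852 in CTRL. Its libraries did not overlap, yet the change of -0.53 (SE 0.17) did not pass (limma adjusted p = 0.0755, and 0.0127 with the replicate block), with a 95% interval of -0.92 to -0.13 that is not adjusted for the number of genes.

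**Figure D2:**
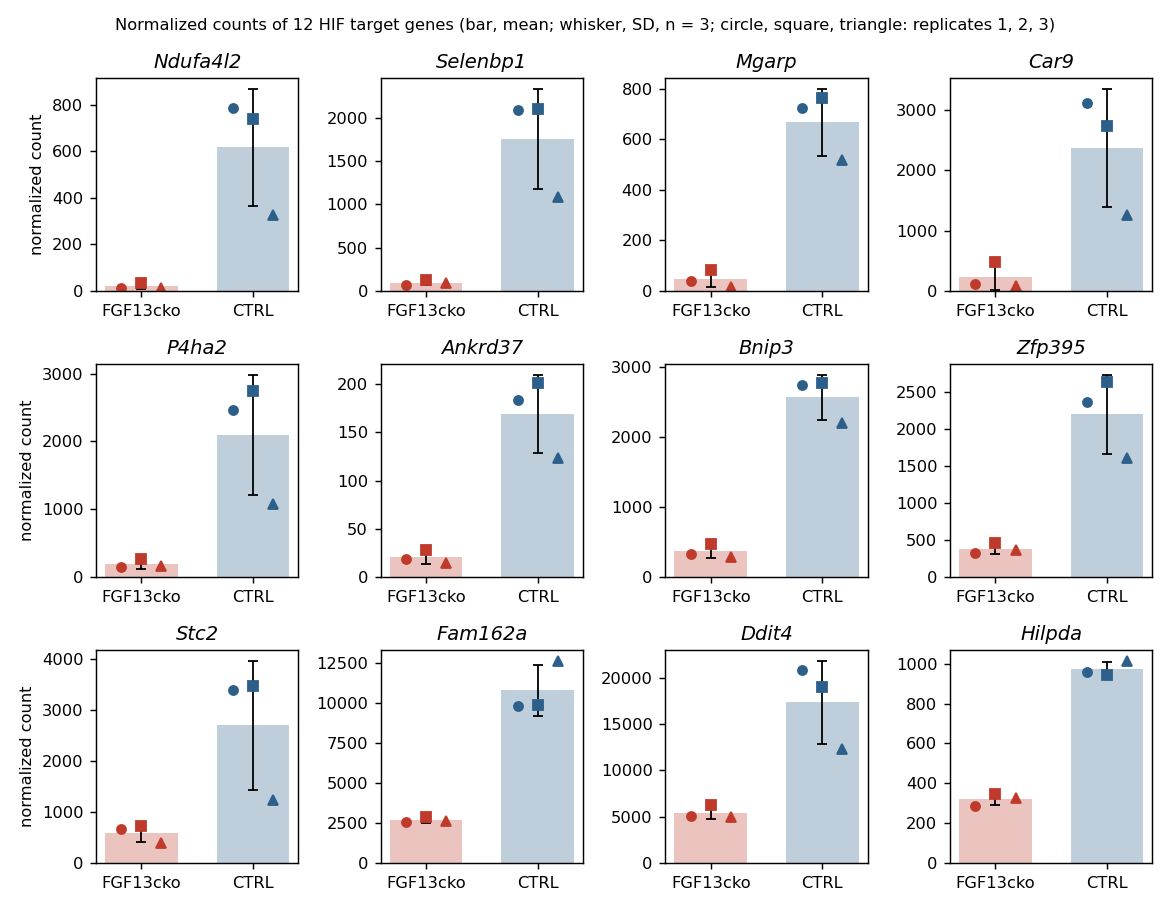
Bars give the mean normalized count of each group of 3 libraries with its SD for 12 of the genes, FGF13cko left and CTRL right, and points the single libraries on an axis that starts at 0. In every panel the 3 FGF13cko points lie below the 3 CTRL points, and CTRL 3 (triangle) is the lowest CTRL point in all panels but those of Fam162a and Hilpda.

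Of 4 genes of glycogen, lipid droplets and sterol control, Hilpda was lower and 3 did not pass. Hilpda encodes a lipid droplet protein that inhibits the lipase of stored fat. It had 286, 348 and 326 in FGF13cko and 957, 945 and 1016 in CTRL, a change of -1.60 (SE 0.14), and its libraries were among the most even of the set. Gys1, glycogen synthase, had 1798, 2054 and 1398 in FGF13cko and 3712, 3687 and 1767 in CTRL. CTRL 3 lay inside the FGF13cko range, and part of the gene overlaps Ruvbl2 on the other strand. The change of -0.74 (SE 0.30) had a limma adjusted p of 0.134, against 0.0071 with the replicate block. Gbe1, the glycogen branching enzyme, had 495, 553 and 424 in FGF13cko and 1490.2, 1760.1 and 578 in CTRL. CTRL 3 was just above FGF13cko 2, and the change of -1.23 (SE 0.38) had a limma adjusted p of 0.0673, against 0.0041 with the replicate block. Insig2, which holds sterol regulators in the endoplasmic reticulum, had 834, 958 and 1028 in FGF13cko and 943, 939.9 and 984 in CTRL. The groups overlapped throughout, and the change of -0.03 (SE 0.14) had a 95% interval of -0.35 to 0.29.

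Of 7 transcriptional regulators 6 were lower. Zfp395, a zinc finger protein, had 319.7, 462 and 362 in FGF13cko and 2363, 2638 and 1606 in CTRL, a change of -2.51 (SE 0.22) and the largest of this group. Bhlhe40 and Bhlhe41 are related repressors that also act in the circadian clock. Bhlhe40 had 1339.6, 1373 and 752 in FGF13cko and 4254, 4201 and 1644 in CTRL, with replicate 3 low in both groups and a change of -1.47 (SE 0.40). Bhlhe41 had 247, 278 and 267 in FGF13cko and 575, 569 and 477 in CTRL, a change of -1.03 (SE 0.15) with little spread in either group. Bhlhe40, the less even of the pair, had the largest adjusted p among the 26 calls. Mxi1, a repressor that opposes MYC, had 734, 766 and 706 in FGF13cko and 1901, 1969 and 1474 in CTRL, a change of -1.26 (SE 0.15). Rora, a nuclear receptor, had 646, 638 and 705 in FGF13cko and 1481, 1494 and 1191 in CTRL, a change of -1.06 (SE 0.15). In both Mxi1 and Rora CTRL 3 was the lowest CTRL library and the groups stayed apart. Jmjd6, an oxygen-dependent hydroxylase of the nucleus, had 1664, 1538 and 1230.2 in FGF13cko and 3850.0, 3680.2 and 2587 in CTRL, a change of -1.18 (SE 0.20), and it shares exonic bases with Mettl23. Cited2 is a HIF target that competes with HIF for its coactivators, and it had 771, 865 and 1088 in FGF13cko and 745, 741 and 666 in CTRL. All FGF13cko libraries were above all CTRL libraries, the reverse of the other regulators, but the change of 0.33 (SE 0.17) did not pass (limma adjusted p = 0.214, 95% interval -0.05 to 0.71).

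Of 7 genes of growth restraint, stress and protein turnover 5 were lower. Selenbp1, a selenium-binding methanethiol oxidase, had 71.8, 125 and 90.8 in FGF13cko and 2084, 2096 and 1087 in CTRL, an 18.3-fold lower mean in FGF13cko and a change of -4.15 (SE 0.31). A near copy, Selenbp2, had 0.965 to 2.95 in FGF13cko and 0 to 7.12 in CTRL, and the authors' counting could have split reads between them, so the value of Selenbp1 is uncertain to that extent. Ankrd37, an ankyrin repeat protein, had 18.7, 28.0 and 14.5 in FGF13cko and 183, 201 and 123 in CTRL, a change of -3.01 (SE 0.32) with the lowest mean of the set in each group. Its exons overlap Lrp2bp and Ufsp2 on the opposite strand, so part of its reads cannot be assigned. Ddit4, also called Redd1, restrains the growth kinase mTORC1 and had 5069, 6287 and 4952 in FGF13cko and 20769.7, 19017 and 12277 in CTRL. The change was -1.65 (SE 0.23), with CTRL 3 lowest in its group and still above FGF13cko. Narf, a protein that binds prelamin A, had 954, 1169 and 986 in FGF13cko and 2795, 2339.8 and 2641 in CTRL, a change of -1.32 (SE 0.15). Ccng2, an atypical cyclin linked to cell cycle arrest, had 934, 1012 and 1075 in FGF13cko and 2559, 2516 and 2156 in CTRL, a change of -1.26 (SE 0.14). Narf and Ccng2 were even within both groups.

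Ndrg1 and Wsb1 were the remaining genes of that group, and neither passed the test. Ndrg1, a stress-induced protein tied to differentiation and lipid metabolism, had 257, 424 and 308 in FGF13cko and 2549, 2978 and 317 in CTRL. CTRL 3 lay within the FGF13cko range, about an order of magnitude under CTRL 1 and 2, which is the largest gap between control libraries in the set. The change of -2.05 (SE 0.76) had a limma adjusted p of 0.108, against 0.0133 with the replicate block. Without CTRL 3 the change was -3.09, while within replicate 3 alone it was -0.04, so the difference rests on replicates 1 and 2. Wsb1, the substrate receptor of a ubiquitin ligase, had 6062, 6677 and 5967 in FGF13cko and 7303, 7241 and 12246 in CTRL. Here CTRL 3 was the high library, the groups did not overlap, and the change of -0.47 (SE 0.22) had a 95% interval of -0.99 to 0.04. Without CTRL 3 the change of Wsb1 was -0.22.

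Relatives with like functions differed by unequal amounts. For 5 pairs the log2 ratio of one relative over the other was taken within each library, where the library's size factor cancels. The ratios are of counts, not corrected for exon length, so only their difference between groups is read. Bnip3 over Bnip3l was -2.65, -2.31 and -3.18 in FGF13cko, against -1.34, -1.26 and -1.48 in CTRL, with means of -2.71 ± 0.44 and -1.36 ± 0.11 (SD, n = 3 each). The ratio was lower in every FGF13cko library than in any CTRL library. Car9 over Car12 was -1.29, 0.50 and -1.53 in FGF13cko, against 2.38, 2.51 and 1.51 in CTRL, with means of -0.77 ± 1.11 and 2.13 ± 0.54. FGF13cko 2 was well above FGF13cko 1 and 3 and still below CTRL 3, so the spread in this pair was the widest. P4ha1 over P4ha2 was 3.85, 3.06 and 3.30 in FGF13cko, against 1.60, 1.46 and 1.95 in CTRL, a difference of 1.74 that is larger than either group's spread. Plod2 over Plod1 was 0.12, 0.04 and -0.02 in FGF13cko, against 0.71, 0.90 and 0.68 in CTRL, a difference of -0.72 with the smallest spread of the 5 pairs. For Bhlhe40 over Bhlhe41 the FGF13cko ratios were 2.44, 2.30 and 1.49 and the CTRL ratios 2.89, 2.88 and 1.78, and these ranges overlapped. The first 4 pairs did not overlap between groups. An exact permutation test of 3 against 3 libraries cannot go below 0.1 over its 20 assignments, and since the ratios come from the contrast that selected the genes, they are given as a description.

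**Figure D3:**
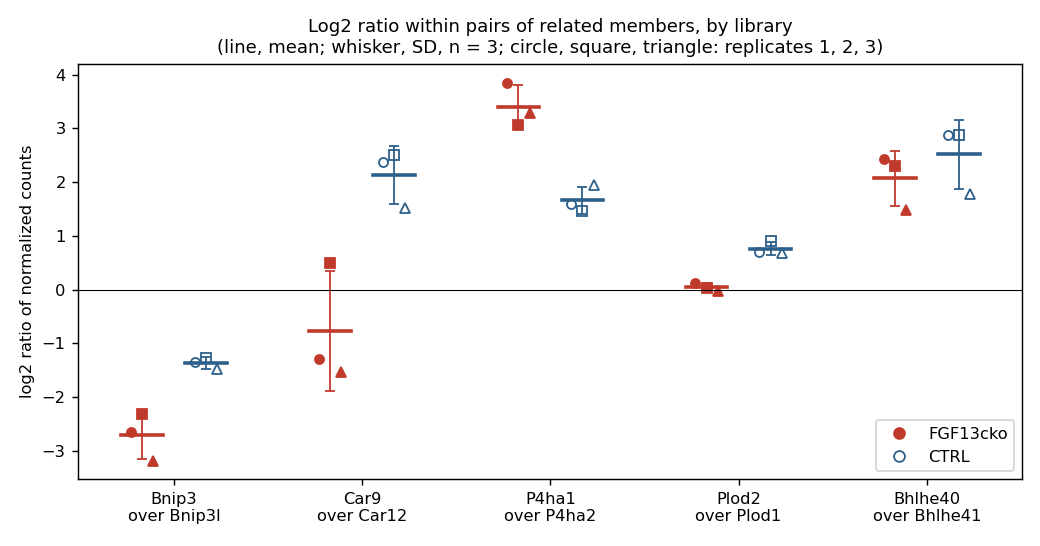
The vertical axis is the log2 ratio of normalized counts of 2 related genes in 1 library, for 5 pairs with FGF13cko left and CTRL right, and lines and whiskers are the mean and SD of 3 libraries. The groups do not overlap for the first 4 pairs, while the ranges of Bhlhe40 over Bhlhe41 do.

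Part of the spread of these genes followed the replicate number. CTRL 3 was below the mean of CTRL 1 and 2 in 28 of 34 genes, by 1 or more on the log2 scale in 9, with a median difference of -0.53 against -0.06 over all genes tested. CTRL 1 and 2 lay within 0.25 of each other in 31 of 34 genes. FGF13cko 3 was closer to its own group, with a median difference of -0.24 from the mean of FGF13cko 1 and 2, against -0.01 over all genes tested. Among the FGF13cko libraries, FGF13cko 2 was the highest in 24 of 34 genes. The gaps of CTRL 3 were -3.12 in Ndrg1, -1.50 in Adm, -1.48 in Gbe1, -1.47 in Stc2 and -1.36 in Bhlhe40. In the mitochondrial group the gaps ran from -1.22 in Ndufa4l2 to 0.36 in Fam162a, which was higher in CTRL 3. Within replicate 3 alone 32 of 34 genes were lower in FGF13cko, with a median of -1.11. Within replicates 1 and 2 it was 33 of 34, with a median of -1.51. Fgf13 itself was higher in FGF13cko 3 (332) than in CTRL 3 (276). The counts in this paragraph were not taken over all genes, so they describe the 34 genes alone. In the replicate 3 libraries the share of mitochondrially encoded reads was also the highest of each group, and its part in these gaps was not tested.

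**Figure D4:**
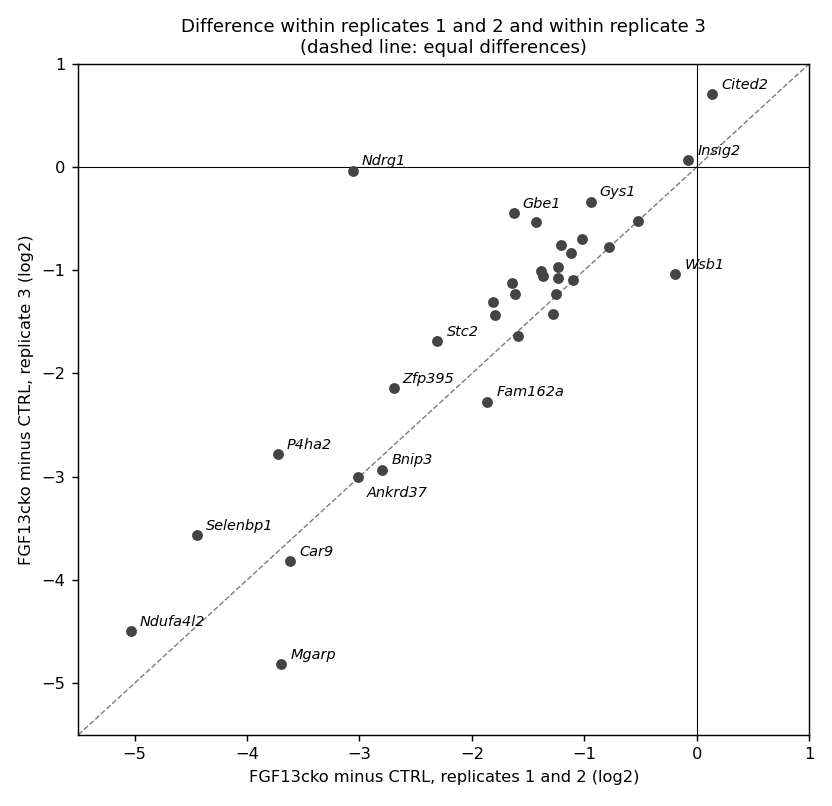
Each point is 1 of the 34 genes, with the log2 difference of FGF13cko minus CTRL over replicates 1 and 2 on the horizontal axis and that of the replicate 3 libraries on the vertical axis. Most points lie above the dashed line of equal differences, with a median of -1.51 over replicates 1 and 2 and of -1.11 in replicate 3. Ndrg1, at -3.06 and -0.04, lies farthest from the line.

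The 34 genes covered a wide range of expression. Per kilobase of exon, their CTRL means stood between the 40.0th and the 99.7th percentile of 16838 tested genes with a known length, with a median at the 87.1st percentile. In FGF13cko the median was at the 68.7th percentile. Fam162a and Ddit4 were the highest, at 3151 and 3098 normalized counts per kilobase in FGF13cko and 12676 and 9889 in CTRL. Both stayed among the most abundant transcripts of the FGF13cko libraries. Ndufa4l2, by contrast, stood at the 21.7th percentile in FGF13cko and at the 86.8th in CTRL, and Mgarp at the 23.7th and 76.7th. Car12 was the lowest of the set in CTRL, at 38.7 per kilobase in FGF13cko and 66.6 in CTRL.

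The HIF machinery itself was measured beside its targets. Of 11 HIF factors and regulators 3 were lower (5 with the replicate block) and 0 higher in FGF13cko, beside 7.08% of all genes lower (13.9% with the block) and 7.55% higher, with a median log2 change of -0.21. Hif1a, the main alpha subunit, had 2852, 2708 and 2475 in FGF13cko and 2315, 2341 and 2108 in CTRL. Its libraries were higher in FGF13cko without overlap, but the change of 0.25 (SE 0.13) did not pass (limma adjusted p = 0.235). Epas1, the alpha subunit of the second HIF complex, had 671, 882 and 680.4 in FGF13cko and 866, 935 and 310.5 in CTRL, which overlapped, and its change of 0.23 did not pass (SE 0.39, limma adjusted p = 0.728). The partner Arnt was lower, with 1398, 1349.7 and 1200.3 in FGF13cko and 2372, 2336 and 1966 in CTRL and a change of -0.75 (SE 0.14, limma adjusted p = 0.0142). Also lower were Hif3a, an alpha subunit with inhibitory forms, and Egln3, a prolyl hydroxylase that is itself a HIF target, with changes of -2.02 (SE 0.34) and -1.78 (SE 0.40). Arnt2, a relative of Arnt, went the other way, with 4995, 5073 and 4273 in FGF13cko and 4008, 4006 and 3360 in CTRL. Its libraries did not overlap, but the change of 0.33 (SE 0.15) did not pass (limma adjusted p = 0.164). The lower Arnt is therefore not a statement about both relatives. Transcript levels of the alpha subunits do not measure their protein, which oxygen controls. Of 20 glycolytic and pyruvate genes 12 were lower and 0 higher, with a median log2 change of -1.27, and 16 were lower with the replicate block. Both counts stand beside 7.08% lower and 7.55% higher of all genes tested, or 13.9% lower with the block, and the 20 were listed with earlier results known.

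Several of the 34 genes are known to answer to other regulators too, and lists of those regulators' genes were read in the same fit. Of 10 ATF4 and stress genes, which share Ddit4 and Stc2 with HIF, 5 were lower (6 with the replicate block) and Sesn2 was higher, with a median log2 change of -0.60. Of 8 FOXO genes, whose factors also drive Bnip3, Ccng2 and Cited2, Klf15 was lower and 0 were higher, with 4 lower under the replicate block (median -0.53). Of 10 clock genes beside Bhlhe40, Bhlhe41 and Rora, Per3, Dbp and Cry2 were lower and 0 were higher, with 4 lower under the replicate block (median -0.19). These counts stand beside the 7.08% lower and 7.55% higher of all genes, or 13.9% lower with the block, and which regulator acts on a given gene was not tested.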

How the data were processed

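RNA was sequenced in 3 FGF13cko and 3 CTRL libraries, made with the NEBNext Ultra RNA kit per the labels' protocols, a kit that does not mark strand. Per the submitters' processing notes, the tools included STAR and DESeq2 and the build was mm10; versions, annotation and counting program are not given there. The deposited values are a signal close to counts in scale: the authors deposited gene counts scaled by 1 size factor for each library, and dividing by each library's step gave whole reads for 100% of values, within 0.01 of a read. The table also holds the authors' deposited log2 fold change, its error, the Wald score, the p-value and the adjusted p-value. Where no read was seen, counting error alone leaves room for 3 reads (95% level), which is 2.89 to 3.05 normalized counts.

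The test was limma 3.58.1 (R 4.3.3) on log2(value + 1) with a trend, genotype as the only term, genes with a mean of at least 10, and Benjamini-Hochberg adjustment. Such fold changes understate the change of low genes. The scripts were tested on simulated data. The alternatives were pseudocounts of 0.5 and 5, no filter, a mean of at least 50, TMM factors, a replicate block, libraries left out, and edgeR 4.0.16 and DESeq2 1.42.0 on the recovered reads. GENCODE M21 (GRCm38, the assembly of mm10) gave coordinates, 1-based, and exon lengths. Promoter windows were not used for Bhlhe40, Ndufa4l2, Zfp395, Bnip3l, Ndrg1 and Plod2.

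The 34 genes and all lists were chosen with earlier results of these data known. Values per library were planned for calls of 1 or more in size, paired genes and the highest gene of each role. The other genes (Adm, Gbe1, Insig2, Cited2, Ndrg1 and Wsb1) were given in full after their values were seen. Around the group means, the residuals of FGF13cko and CTRL libraries with 1 number had correlations of 0.36 (replicate 1), 0.20 (replicate 2) and 0.54 (replicate 3). Each was over 0.1, so the block is printed where it changes a lower call. Higher calls with the block were counted for the 34 genes and over all genes, but not for the other lists. CTRL 1 also correlated at 0.26 with FGF13cko 2 and CTRL 2 at 0.33 with FGF13cko 1, and the meaning of the number is not labelled.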

Additional observations from a re-analysis of the deposited data

How the results depend on the processing

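Over 15 alternatives, 20 of the 26 genes called lower kept their direction and call in all of them. The other 6 (Ak4, Bhlhe40, Car12, Jmjd6, Stc2 and Vldlr) lost the call under at least 1, Bhlhe40 also without the filter on low values and all 6 without FGF13cko 2. Adm, Gbe1, Gys1, Ndrg1 and Plod1 gained the call with the replicate block and without CTRL 3. The count of genes lower was 31 with the replicate block, 28 by edgeR and 30 by DESeq2 on the recovered reads, 31 without both replicate 3 libraries, and 20 to 31 with single libraries left out, the lowest without FGF13cko 2 and the highest without CTRL 3. Over all genes, the count of lower calls was 1193 (7.08%), against 2341 (13.9%) with the block, 1325 (7.86%) by edgeR and 1973 (11.7%) by DESeq2. It was 3034 (18.4%) without both replicate 3 libraries, and 276 to 2145 (1.64% to 12.9%) with single libraries left out. No gene of the set was called higher under any alternative. The size of large changes depended on the estimate. The authors' deposited log2 fold changes were -4.07 for Ndufa4l2, -3.26 for Mgarp and -1.44 for Ndrg1, against -4.85, -4.07 and -2.05 by limma. On the recovered reads DESeq2 gave -4.88, -3.87 and -2.56, and edgeR gave -4.88, -3.88 and -2.57. Why the deposited values were smaller in size was not tested. Insig2 ranged from -0.096 to 0.055 with single libraries left out and changed sign without FGF13cko 1 (0.055, limma adjusted p = 0.86), and the cause was not tested. The log2 change of Fgf13 passed the test without CTRL 3 (-1.15), without both replicate 3 libraries (-1.35) and by DESeq2 (-0.87). With single libraries left out it ranged from -1.15 to -0.53, and with the replicate block its limma adjusted p was 0.0635. A gene that did not pass with 3 libraries a group is not shown to be equal between the groups.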
